A study of Mus musculus with 11 samples.

Results

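The comparison asked whether a final stimulation through CD3 and CD28 changed gene expression by the same amount in CD8+ effector T cells of 2 origins. For each gene it was the stimulated minus unstimulated difference of naive-derived cells, less that of memory-derived cells. This difference of differences is called the interaction here. It needed all 4 groups of the study, and all 11 of 11 arrays entered it. The cells came from pmel-1 transgenic mice, whose T cells carry a receptor for a peptide of the melanocyte protein gp100, and every group carried this transgene. CD8+ T cells were enriched as naive (CD44-) or central memory (CD44+), stimulated on plate-bound antibodies to CD3 and CD28, restimulated with allogeneic feeder cells carrying hgp100(25-33) peptide, and grown for 2 weeks in medium with 10 cetus units of interleukin 2. The final CD3/CD28 stimulation lasted 4 h, and unstimulated cells went without it. Over 3 independent experiments, memory-derived cells gave 3 arrays in each state, and naive-derived cells gave 3 stimulated and 2 unstimulated arrays. Experiments 1 and 2 held all 4 groups, and the 11 arrays included no naive-derived unstimulated array of experiment 3. The design calls the unstimulated cells rested, and both origins had been activated earlier in the same culture. On the 2 arrays labelled naive-derived unstimulated, Il2 lay at 12.18 and 11.04 and Ifng at 13.10 and 13.21 (log2), within or above the range of memory-derived stimulated cells. That label could not be checked further, and every interaction given here rests on it.

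An effector T cell that meets antigen again signals through its receptor and CD28 to the factors NFAT, AP-1 and NF-kappaB, which switch on cytokine genes within hours. The same signals raise amino acid supply, protein synthesis and ribosome production. Resting T cells keep other genes on, among them receptors for restraining cytokines, GIMAP GTPases and inhibitors of the cell cycle, and many of these are switched off by activation. Genes induced by interferon form a further group that T cells express at a basal level and raise when interferon signals through STAT factors.

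The labelled cell type was borne out by its markers. All 8 CD8 T cell markers (Cd8a, Cd8b1, Cd3d, Cd3e, Cd3g, Thy1, Cd2 and Cd5) lay above the filter level of 1.54 (log2) on every array, with mean levels over the list of 8.01 to 8.49. Lists of B cell, red cell and other T and NK cell markers had array means of 0.75 to 1.83, and Cd4, Cd79a and Ms4a1 had group means of 1.03 to 1.10, 0.78 to 1.36 and 1.17 to 1.46. Other members were higher: Zbtb7b had group means of 2.76 to 3.03, and those of Pax5, Cd40lg, Blk and Cd22 reached 2.36, 2.30, 2.24 and 2.15. On all naive-derived unstimulated arrays, 4 of 6 B cell markers and 3 of 5 other T and NK cell markers exceeded the filter level. In the macrophage and dendritic cell list (array means of 2.17 to 2.97), Lyz2 lay at 1.35 to 1.75, but Itgax and Cd68 were higher in memory-derived groups: Itgax had group means of 6.27 and 5.58 there against 4.50 and 4.35. The neutrophil and mast cell list had array means of 1.87 to 2.46, but within it Cpa3 had group means of 5.11 and 4.78 in memory-derived against 3.39 and 3.14 in naive-derived cells, and Kit lay at 3.32 to 4.06. No gene of these lists passed the interaction test in limma (5 had an unadjusted p below 0.05), and their part in the results was not tested. Along the first principal component, which held 56.5% of the variance, arrays 1 to 3 of memory-derived unstimulated cells had scores of 50.4, 40.3 and 77.4. The other 8 arrays, including the pair labelled naive-derived unstimulated, lay between -37.45 and -11.6. Memory-derived unstimulated array 3 stood furthest out, so values without it are given below. The actin 3' minus 5' signal difference (log10), which grows as RNA is degraded, ranged over 0.263 to 0.351 (unstimulated) and 0.431 to 0.520 (stimulated) in memory-derived cells. In naive-derived cells it ranged over 0.462 to 0.478 (unstimulated) and 0.581 to 0.782 (stimulated). Its stimulated minus unstimulated difference was 0.144 in memory-derived and 0.218 in naive-derived cells, and its part in the results was not tested. The same measure for Gapdh was negative on every array and did not rise with that of actin. Its group medians were -0.437 (unstimulated) and -0.425 (stimulated) in memory-derived cells. In naive-derived cells they were -0.461 (unstimulated) and -0.506 (stimulated). In bulk samples such as these, fewer cells of a kind and less RNA per cell cannot be told apart.

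The results turn in part on 3 kinds of gene, and the 250 bases before the start of a pair of each are shown, with 1 motif marked per pair; motifs of another pair can occur in them unmarked (RefSeq, GRCm38.p6, 5′ to 3′ in the direction of the gene). Il2 and Tnf stand for cytokine genes that were low in memory-derived unstimulated cells. Capitals mark the core bound by NFAT, GGAAA or its reverse complement TTTCC. They were read for Il2 at chr3:37125955-37126204 on the minus strand and Tnf at chr17:35202008-35202257 on the minus strand.
Il2: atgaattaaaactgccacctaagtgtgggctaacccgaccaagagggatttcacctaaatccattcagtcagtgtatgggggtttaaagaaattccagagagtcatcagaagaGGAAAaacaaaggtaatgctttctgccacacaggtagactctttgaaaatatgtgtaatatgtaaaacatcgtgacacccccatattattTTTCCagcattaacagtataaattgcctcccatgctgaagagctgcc
Tnf: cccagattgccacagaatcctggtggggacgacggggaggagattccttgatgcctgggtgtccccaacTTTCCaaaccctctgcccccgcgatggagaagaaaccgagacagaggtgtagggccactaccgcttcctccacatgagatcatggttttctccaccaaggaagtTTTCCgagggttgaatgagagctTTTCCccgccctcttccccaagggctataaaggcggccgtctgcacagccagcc
Asns and Chac1 stand for targets of ATF4, the transcription factor of the amino acid response. Capitals mark the ATF4-type motif TGATGNAA on either strand, read for Asns at chr6:7693210-7693459 on the minus strand and Chac1 at chr2:119350992-119351241 on the plus strand.
Asns: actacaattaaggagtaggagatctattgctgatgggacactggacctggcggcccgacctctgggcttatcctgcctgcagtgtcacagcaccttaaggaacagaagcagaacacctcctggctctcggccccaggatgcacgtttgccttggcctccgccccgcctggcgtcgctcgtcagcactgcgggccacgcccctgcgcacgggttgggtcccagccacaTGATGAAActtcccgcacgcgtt
Chac1: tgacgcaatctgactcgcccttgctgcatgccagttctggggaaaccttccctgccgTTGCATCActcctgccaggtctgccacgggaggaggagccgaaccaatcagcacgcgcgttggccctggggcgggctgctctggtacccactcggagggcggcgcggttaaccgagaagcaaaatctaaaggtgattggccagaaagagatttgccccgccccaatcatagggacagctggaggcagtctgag
Gbp2 and Igtp stand for interferon-inducible GTPases that were low in memory-derived stimulated cells. Capitals mark the interferon-type motif, a pair of GAAA repeats separated by 2 bases of any kind, on either strand, read for Gbp2 at chr3:142620413-142620662 on the plus strand and Igtp at chr11:58199306-58199555 on the plus strand.
Gbp2: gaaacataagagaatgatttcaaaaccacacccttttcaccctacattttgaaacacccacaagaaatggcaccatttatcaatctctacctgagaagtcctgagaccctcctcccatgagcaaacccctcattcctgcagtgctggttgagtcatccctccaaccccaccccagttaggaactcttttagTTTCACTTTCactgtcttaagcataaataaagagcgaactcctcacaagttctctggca
Igtp: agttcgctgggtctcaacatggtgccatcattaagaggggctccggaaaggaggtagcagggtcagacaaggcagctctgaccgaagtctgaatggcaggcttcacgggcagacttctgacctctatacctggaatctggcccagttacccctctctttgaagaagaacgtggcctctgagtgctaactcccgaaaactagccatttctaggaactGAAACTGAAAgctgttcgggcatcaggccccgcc
A match is a string of letters and not a measured binding site. The NFAT core stood in 54.19% of the 11870 promoters of genes tested, in 57.22% of those of genes with a positive interaction and in 50.79% of those with a negative one. Its share was 11 of 15 (73.33%) in the promoters of the passing genes for which memory-derived stimulated cells were the group apart and low. The interferon-type motif stood in 2.628% of promoters of genes tested and in 4 of the same 15 promoters (26.67%). AP-1 motifs, TGANTCA, also stood in 4 of those 15, against 5.072% of genes tested. Among genes with a negative interaction, the E-box CACGTG stood in 13.49% of promoters, against 7.894% of genes tested and 5.155% of genes with a positive interaction, and the ATF4-type motif in 3.968%, against 2.266%. The NF-kappaB motif, GGG and CC separated by 5 bases of any kind, stood in 62.7% of negative, 64.95% of positive and 58.99% of tested promoters, and the CRE motif TGACGTCA in 2.381%, 1.546% and 2.494%. These shares are descriptions with no test, and the motifs can overlap.

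Where the response to stimulation differed between origins, memory-derived unstimulated cells were the group that stood apart in most genes. Of 14795 genes tested, 401 (2.71%) passed the interaction test at an adjusted p below 0.05 (limma, Benjamini-Hochberg). The interaction was positive for 239 genes (1.62%), where memory-derived cells had the more negative response, and negative for 162 (1.09%), where they had the more positive one. For genes with a positive interaction, the median stimulated minus unstimulated difference (log2) was -1.49 in memory-derived and -0.12 in naive-derived cells. For genes with a negative interaction it was 1.50 and 0.19. Taken the other way, the naive minus memory difference had a median of -1.34 in unstimulated and -0.07 in stimulated cells for positive genes, and of 1.25 and -0.05 for negative genes. By these medians the origins differed before the final stimulation and lay close together after it, but not every gene did so. The stimulated origin difference was 1 or more in size in 13 of the 239 positive and 18 of the 162 negative genes, against 275 of all 14795. The unstimulated one was that large in 181 and 112, against 1338 of all genes tested. Over all genes tested, the median interaction was 0.02. In the same fit, the stimulated minus unstimulated difference passed in 4675 of the 14795 genes in memory-derived cells and in 2 in naive-derived cells (limma, adjusted p below 0.05). At an unadjusted p below 0.05 there were 6059 and 1252. The naive-derived comparison had 2 unstimulated arrays against 3. In the plot of the responses, most passing genes form a band along the horizontal axis.

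**Figure D1:**
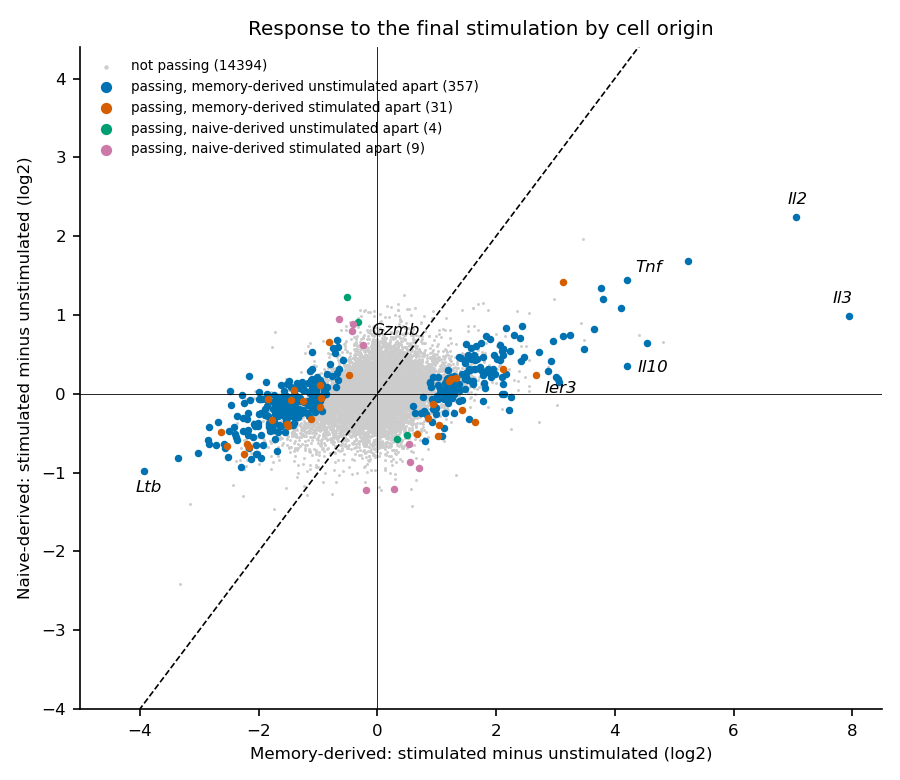
Each point is a gene, with the stimulated minus unstimulated difference (log2) in memory-derived cells on the horizontal axis and in naive-derived cells on the vertical axis. Genes that passed the interaction test are coloured by the group whose mean lay furthest from the other 3, the dashed line marks equal responses, and 357 of the 401 passing genes carry the colour of memory-derived unstimulated cells.

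To see which group mean set the difference, each gene was assigned the group whose mean lay furthest from the mean of the other 3 group means. Memory-derived unstimulated cells were that group for 357 of the 401 passing genes (89.03%), against 54.5% of all genes tested. The genes share the same arrays and are not independent. The share was 60 to 92.7% with 1 array left out, where any gene passed, and 65.4% with the experiment number as a block. In 312 of the 357, the range of the other 3 means was less than 0.5 times the gap. The group was high in 215 genes and low in 142. When this group lies furthest out, a high mean must give a positive interaction and a low mean a negative one. The signs therefore follow from the definition and are no separate result. Memory-derived stimulated cells were apart in 31 genes, naive-derived stimulated cells in 9 and naive-derived unstimulated cells in 4. These were 7.731%, 2.244% and 0.9975% of passing genes, against 15.78%, 16.05% and 13.68% of all genes tested. In 9 of the 31, 2 of the 9 and 0 of the 4, the range of the other 3 means was less than 0.5 times the gap. Over all genes tested with that group apart, the share was 30.33%, 29.06% and 28.95%, and 56.54% for memory-derived unstimulated cells. The unstimulated origin difference was at least 2 times the stimulated one, in size, in 329 of the 401 genes (82.04%), against 46.6% of all genes tested.

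**Figure D2:**
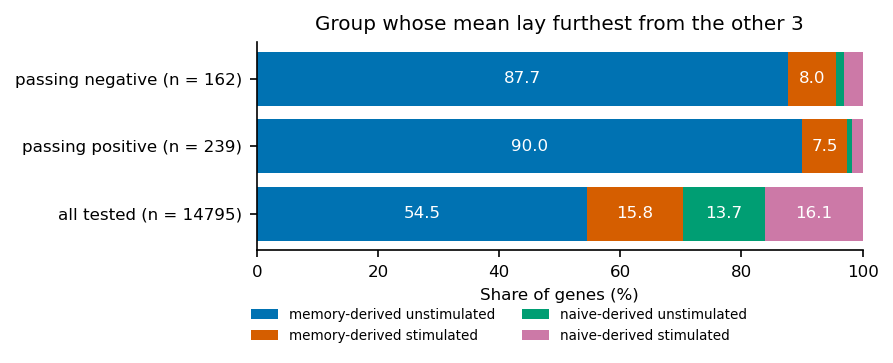
Bars give the share of genes (%) by the group whose mean lay furthest from the mean of the other 3 group means, for all 14795 genes tested, the 239 passing with a positive interaction and the 162 passing with a negative one. Memory-derived unstimulated cells take 54.5% of all genes tested and 89.96% and 87.65% of the passing genes.

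The number of genes that passed rested on single arrays. The experiment number pairs the arrays, and with it as a block 26 genes passed (0.176% of genes tested), 15 positive (0.101%) and 11 negative (0.0743%), all among the 401. Without naive-derived unstimulated array 1 no gene passed in limma (2600 at an unadjusted p below 0.05, against 3454 with all arrays), and without array 2 of that group 8 and 7 genes passed. Without memory-derived unstimulated array 3, 262 positive and 220 negative interactions passed, and 344 of the 401 were among them. Scaling the arrays to their hybridization controls left 68 positive and 78 negative genes, a share of 46.6% positive against 59.6%. All 401 genes kept their sign in each of the 11 fits that left out an array. They had been picked for a large interaction on these same arrays, so a changed sign was unlikely beforehand, and no conclusion on direction is drawn from it. Adjusted p-values printed below are from the fit without the block unless the block is named. List counts below stand beside 2.71% of all genes tested that passed, and 3454 of 14795 at an unadjusted p below 0.05 in limma. Of the 100 passing genes named by rule, 24 passed with the block. Passing with the block was itself a ground for naming a gene, so this share is no measure of the passing genes. Among all 401 it was 26.

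Cytokine genes made the largest negative interactions. Il2, the growth factor of T cells, lay at 3.95, 4.96 and 2.32 (log2) on the 3 memory-derived unstimulated arrays and at 10.11, 10.76 and 11.50 on the memory-derived stimulated arrays. On the naive-derived arrays it lay at 12.18 and 11.04 unstimulated and at 14.60, 12.65 and 14.33 stimulated. The memory-derived unstimulated arrays were the lowest 3 by more than 5 units, and the naive-derived arrays labelled unstimulated overlapped the memory-derived stimulated ones. The stimulated minus unstimulated difference was 7.05 (SE 0.68) in memory-derived and 2.25 (SE 0.76) in naive-derived cells, an interaction of -4.80 (SE 1.02, adjusted p = 0.0411, and adjusted p = 0.0904 with the block). Within experiments 1 and 2 it was -3.74 and -4.20. It was -4.09 without memory-derived unstimulated array 3.

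Il3, a growth factor of blood progenitors and mast cells, had the largest interaction of the passing genes by size. It lay at 5.60, 5.92 and 1.78 on memory-derived unstimulated arrays and at 12.03, 12.68 and 12.42 after stimulation. Naive-derived cells held it at 10.34 and 10.02 unstimulated and at 11.11, 10.83 and 11.57 stimulated. Only the memory-derived unstimulated arrays were low, and naive-derived levels spanned less than 2 units across both states. The interaction was -6.95 (SE 1.25, adjusted p = 0.0268, and adjusted p = 0.064 with the block), with -5.65 and -5.95 within experiments 1 and 2. Without memory-derived unstimulated array 3 it was -5.62.

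Tnf, an inflammatory cytokine of effector T cells, lay at 5.66, 6.06 and 5.23 on memory-derived unstimulated arrays and at 9.51, 9.83 and 10.23 on memory-derived stimulated ones. It lay at 9.06 and 7.93 on naive-derived unstimulated arrays and at 9.84, 9.44 and 10.50 on naive-derived stimulated ones. After stimulation the origins overlapped, with a naive minus memory difference of 0.07, while before it that difference was 2.84. The interaction was -2.77 (SE 0.52, adjusted p = 0.0301, and adjusted p = 0.0658 with the block). Il1a, an inflammatory cytokine of the interleukin 1 family, was one of the cytokine genes that also passed with the block (adjusted p = 0.0287, against 0.00693 without). It lay below the filter level on all 3 memory-derived unstimulated arrays, at 3.82 and 3.33 on naive-derived unstimulated arrays, at 6.04, 6.47 and 6.63 on memory-derived stimulated arrays and at 5.84, 5.04 and 4.89 on naive-derived stimulated arrays. With the low group set at the filter level, the interaction was at least -3.16 in size, against -3.55 as measured.

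For Il10, an anti-inflammatory cytokine, the origins did not overlap in either state, and the same held for Il2. Its stimulated levels were 6.35, 5.72 and 5.80 in memory-derived and 9.87, 8.78 and 8.48 in naive-derived cells, and naive-derived unstimulated cells held 9.39 and 7.99 against 2.36, 2.49 and 0.39 in memory-derived unstimulated cells. The interaction was -3.85 (SE 0.85, adjusted p = 0.0432, and adjusted p = 0.0568 with the block). Il24, an interleukin 10 family member, had an interaction of -3.90, and Il23a, a subunit of interleukin 23, one of -3.02. Of the 22 genes of the secreted cytokine list that were tested, 7 passed with a negative interaction and 1, Ltb, with a positive one, and the list median was -1.27. The list's mean level, set to 0 on average in memory-derived unstimulated cells, was 0.25, 0.47 and -0.72 on their 3 arrays. It was 2.07 to 2.36 on memory-derived stimulated, 2.05 and 2.24 on unstimulated and 2.50 to 2.68 on stimulated naive-derived arrays. The lone low group was the memory-derived unstimulated one.

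Of the transcription factors and surface molecules of T cell activation, fewer passed. In the list of 29 immediate early factors, 5 passed, all with a negative interaction, and the list median was -0.74. Irf4, which drives effector differentiation, lay at 7.07, 6.78 and 6.0 on memory-derived unstimulated arrays and between 8.66 and 9.49 on all 8 others, an interaction of -1.63 (SE 0.35, adjusted p = 0.0411, and adjusted p = 0.0863 with the block). Atf3, a stress-induced factor, had an interaction of -2.86, and Fosl1, an AP-1 subunit, one of -2.19. Of 24 activation markers and costimulatory genes, 2 passed in each direction. Cd70, the ligand of CD27, had an interaction of -2.83 (SE 0.62) and Tnfrsf4, the receptor OX40, one of -2.01 (SE 0.39). Tnfrsf4 lay at 9.32 to 9.98 on all naive-derived arrays, above the 7.04 to 7.27 of memory-derived stimulated cells and the 3.93 to 5.12 of memory-derived unstimulated cells. Of 21 NF-kappaB genes, 4 passed with a negative and 2 with a positive interaction. The nuclear regulator Nfkbid (-2.43), the inhibitor Nfkbib (-1.73) and Cflar (-1.57), which restrains caspase 8, were negative, and Tnip1 (1.15), an inhibitor of the pathway, was positive. Dusp4, a phosphatase that inactivates MAP kinases, was the 1 gene of its list of 12 that passed, with an interaction of -1.89.

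In the list of interleukin 2 and STAT5 signalling, 3 of 14 genes tested passed, all with a negative interaction, and the list median was -0.75. Stat5a, which carries the signal to the nucleus, lay at 5.79, 5.90 and 4.79 on memory-derived unstimulated arrays, at 8.46, 8.33 and 8.31 on memory-derived stimulated arrays, at 8.40 and 8.11 on naive-derived unstimulated arrays and at 8.74, 8.11 and 8.78 on naive-derived stimulated arrays. The 8 other arrays overlapped across groups, and the interaction was -2.59 (SE 0.41, adjusted p = 0.0226, and adjusted p = 0.0568 with the block). Stat5b, its close paralog, had a smaller interaction of -0.99 (SE 0.18). Socs3, a feedback inhibitor of cytokine receptors, lay at 2.52, 2.93 and 2.55 on memory-derived unstimulated arrays and between 3.64 and 4.49 on the others, and passed with the block too (interaction -1.87, SE 0.26, adjusted p = 0.0474 with the block). Of the 14, 3 had an estimate above 0. Il2ra, the receptor chain CD25, did not pass (-1.51, adjusted p = 0.109).

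**Figure D3:**
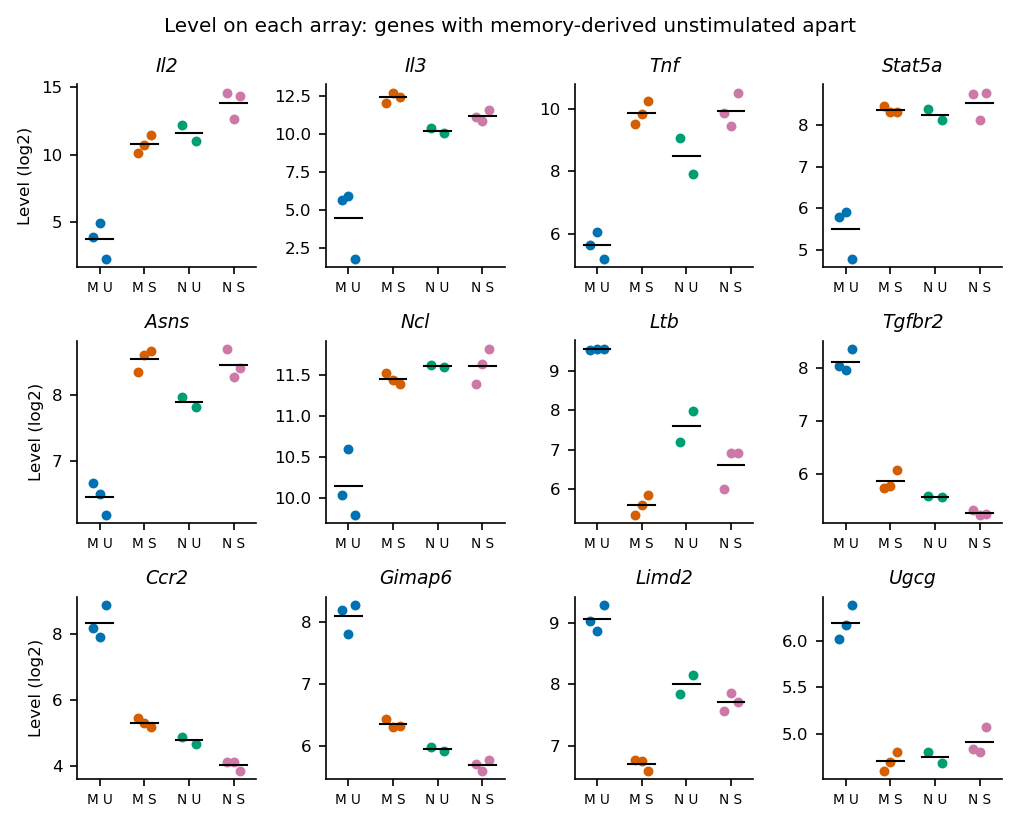
Each panel gives the level (log2) of 1 gene on the 11 arrays, with a bar at each group mean, for memory-derived (M) and naive-derived (N), unstimulated (U) and stimulated (S) cells. In Il2, Il3, Tnf, Stat5a, Asns and Ncl the memory-derived unstimulated arrays lie below all others, and in Ltb, Tgfbr2, Ccr2, Gimap6, Limd2 and Ugcg they lie above all others.

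Most passing genes of the amino acid supply and ribosome production lists were low in memory-derived unstimulated cells. Asns, which makes asparagine, lay at 6.66, 6.49 and 6.17 there, at 8.35, 8.62 and 8.68 on memory-derived stimulated arrays, at 7.98 and 7.81 on naive-derived unstimulated arrays and at 8.71, 8.28 and 8.42 on naive-derived stimulated arrays. Naive-derived unstimulated cells lay between the memory-derived groups, below both stimulated groups. The interaction was -1.54 (SE 0.25, adjusted p = 0.0227, and adjusted p = 0.0615 with the block). Of 24 tested genes of the ATF4 amino acid response and serine synthesis, 6 passed with a negative interaction, and 1, Ddit4, with a positive one; the list median was -0.76. Among them Chac1, which degrades glutathione, had an interaction of -2.29, Mthfd2, an enzyme of mitochondrial folate metabolism, of -1.20, and Aldh18a1, of proline synthesis, of -1.17. Eif4ebp1, an inhibitor of translation initiation, passed with the block (interaction -1.33, SE 0.19, adjusted p = 0.0474 with the block).

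Aminoacyl-tRNA synthetases, which load amino acids onto tRNAs, had 4 passing members of 19, all negative, with a list median of -0.61. They were Cars (-1.06), Nars (-1.13), Iars (-1.07) and Wars (-0.72), for cysteine, asparagine, isoleucine and tryptophan. In the ribosome biogenesis list all 33 genes tested had an estimate below 0 (median -1.09), and 4 passed. Ncl, the nucleolar protein nucleolin, lay at 10.05, 10.60 and 9.80 on memory-derived unstimulated arrays and between 11.39 and 11.81 on all others. Its stimulated minus unstimulated difference was 1.30 in memory-derived and 0.00 in naive-derived cells (interaction -1.29, SE 0.29, adjusted p = 0.0438, and adjusted p = 0.0899 with the block). Without memory-derived unstimulated array 3 it was -1.12 (adjusted p = 0.0503). Polr1a and Polr1c, subunits of RNA polymerase I, had interactions of -1.17 and -1.08, and Pes1, which processes ribosomal RNA, of -1.09. The list's mean level, set to 0 in memory-derived unstimulated cells, was 0.13, 0.52 and -0.65 on their arrays and 1.16 to 1.40 on the other 8. Array 3 was the lowest of the low group here, and the other groups were close together. In the ATF4 and synthetase lists naive-derived unstimulated arrays, at 0.73 to 1.02 and 0.62 to 0.67, lay below memory-derived stimulated arrays, at 1.18 to 1.39 and 0.75 to 0.82. Of 23 genes of the unfolded protein response, 1 passed, the chaperone gene Dnajb9 (-1.39), and the list median was -0.44.

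Other genes with large negative interactions had no list in common. Ndrg1, a stress-responsive gene, lay at 3.52, 3.54 and 2.76 on memory-derived unstimulated arrays, at 6.28 to 6.65 on memory-derived stimulated, 7.44 and 6.92 on unstimulated and 7.52 to 8.27 on stimulated naive-derived arrays (interaction -2.50, SE 0.38, adjusted p = 0.0474 with the block). Gch1, the first enzyme of tetrahydrobiopterin synthesis, had an interaction of -2.91, as had Serpinb6b, of a family of close paralogs that probes can share. Cass4, an adaptor of the p130Cas family, had one of -2.10 and passed with the block (adjusted p = 0.0474). So did Pdzk1ip1 (-1.63, adjusted p = 0.0437) and Idi2, an isopentenyl diphosphate isomerase (adjusted p = 0.0474). Idi2 was below the filter level on all 3 memory-derived unstimulated arrays, and with that group set at the filter level its interaction was at least -1.97 in size, against -2.60 as measured. Insig1, a sterol-regulated membrane protein, was the 1 passing gene of 17 in its list (-1.28).

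**Figure D4:**
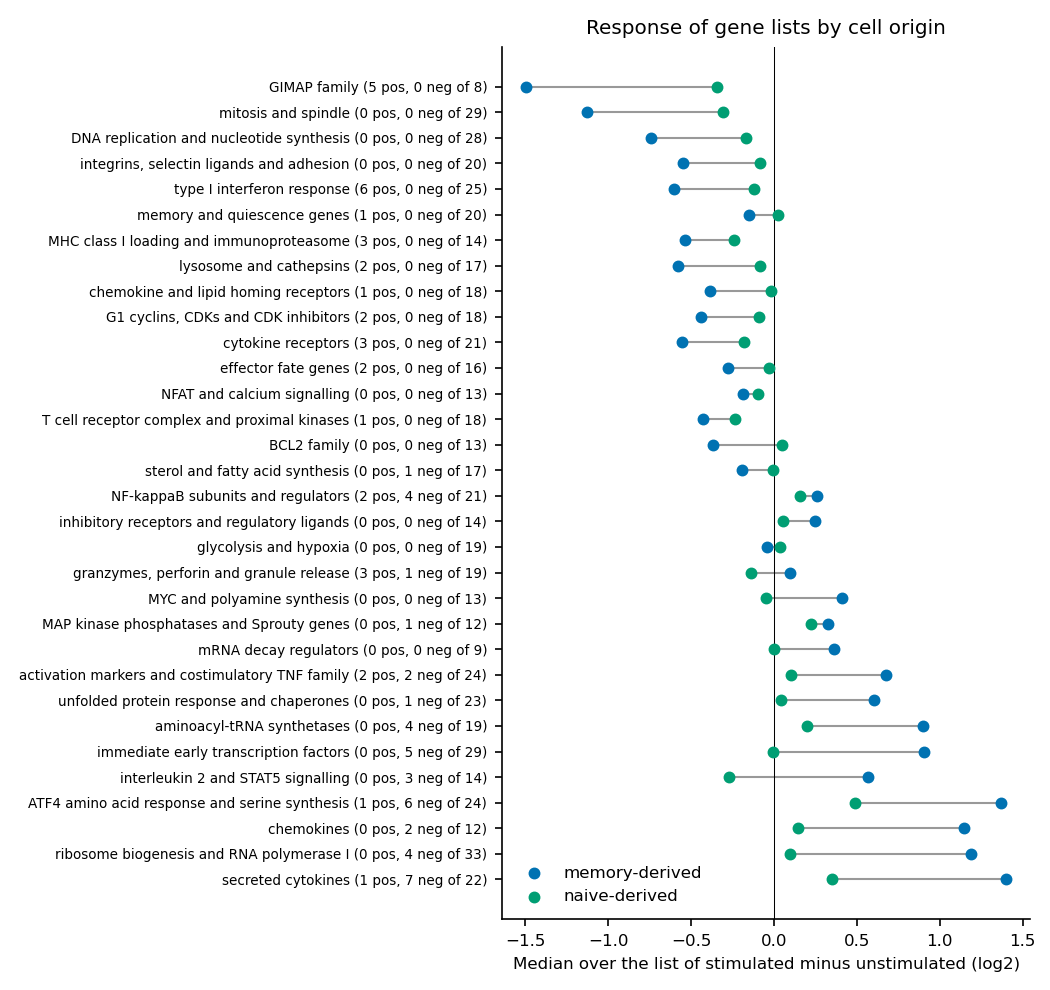
For each gene list, points give the median over its tested members of the stimulated minus unstimulated difference (log2) in memory-derived and in naive-derived cells, ordered by median interaction, with the number passing in each direction. The medians span from -1.50 to 1.40 in memory-derived cells and from -0.34 to 0.49 in naive-derived cells.

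Genes with a positive interaction were led by Ltb, which encodes lymphotoxin beta, a membrane ligand of lymphoid tissue organisation. It lay at 9.51, 9.55 and 9.55 on memory-derived unstimulated arrays and at 5.35, 5.61 and 5.86 on memory-derived stimulated ones. It lay at 7.19 and 7.98 on naive-derived unstimulated arrays and at 5.99, 6.92 and 6.92 on naive-derived stimulated ones. No 2 groups overlapped, and the naive-derived levels lay between the memory-derived ones. The stimulated minus unstimulated difference was -3.93 (SE 0.27) in memory-derived and -0.98 (SE 0.30) in naive-derived cells. The interaction of 2.95 (SE 0.40, adjusted p = 0.0166, and adjusted p = 0.0267 with the block) was 2.96 and 2.88 within experiments 1 and 2.

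Of 21 cytokine receptors tested, 3 passed, all with a positive interaction, and 7 had an estimate below 0 (list median 0.22). Tgfbr2, the receptor of transforming growth factor beta, which restrains T cells, lay at 8.03, 7.97 and 8.36 on memory-derived unstimulated arrays, at 5.73, 5.78 and 6.08 on memory-derived stimulated, at 5.57 and 5.56 on unstimulated and at 5.31, 5.23 and 5.24 on stimulated naive-derived arrays. The 8 other arrays lay between 5.23 and 6.08. The interaction was 1.95 (SE 0.21, adjusted p = 0.0066, and adjusted p = 0.0267 with the block). Ifngr1, a chain of the interferon gamma receptor, had an interaction of 2.02 (SE 0.29) and Il10rb, a chain of the interleukin 10 receptor, of 1.62 (SE 0.27). Ccr2, a chemokine receptor that guides cells to inflamed tissue, was the 1 passing gene of 18 homing receptors. It lay at 8.20, 7.92 and 8.90 on memory-derived unstimulated arrays, at 5.18 to 5.45 on memory-derived stimulated, 4.89 and 4.66 on unstimulated and 3.86 to 4.12 on stimulated naive-derived arrays. No groups overlapped, and the interaction was 2.28 (SE 0.33, adjusted p = 0.017, and adjusted p = 0.0536 with the block).

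GIMAP genes, a family of lymphocyte GTPases, were highest in memory-derived unstimulated cells. They are neighbouring paralogs that probes can share in part. Of the 8 tested, all had an estimate above 0 (median 1.15), and 5 passed. Gimap6 lay at 8.19, 7.80 and 8.28 on memory-derived unstimulated arrays, at 6.31 to 6.44 on memory-derived stimulated, at 6.0 and 5.92 on unstimulated and at 5.61 to 5.77 on stimulated naive-derived arrays. It was high in the first group alone, with an interaction of 1.47 (SE 0.21, adjusted p = 0.017, and adjusted p = 0.0474 with the block). Gimap7 (2.06), Gimap4 (1.28) and Gimap8 (1.04) passed without the block. The family's mean level, set to 0 in memory-derived unstimulated cells, was -1.56 to -1.43 on memory-derived stimulated, -1.37 on both unstimulated and -1.83 to -1.67 on stimulated naive-derived arrays.

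Of 20 memory and quiescence genes tested, 1 passed, Btg2, with a positive interaction, and 8 had an estimate below 0. Of 18 G1 cyclins, CDKs and CDK inhibitors, 2 passed, Cdkn2c and Ccnd3, both positive, and 7 had an estimate below 0. Txnip, an inhibitor of thioredoxin and glucose uptake, had an interaction of 2.33 (SE 0.43), Cdkn2c, an inhibitor of cyclin-dependent kinases, of 1.87 (SE 0.41), and Btg2, which restrains proliferation, of 1.48 (SE 0.33). Ccnd3, a cyclin of the G1 phase, had one of 1.30 (SE 0.28). None of these 4 passed with the block. Of the mitosis and spindle list, 0 of 29 genes passed in limma (19 had an unadjusted p below 0.05, against 3454 of all 14795 genes tested). All 29 had an estimate above 0, with a median of 0.79. The list's mean level, set to 0 in memory-derived unstimulated cells, was -0.10, -0.35 and 0.45 on their arrays, so array 3 was highest and the spread within the group was wide. It was -1.20 to -1.0 on memory-derived stimulated, -0.80 and -0.59 on unstimulated and -1.26 to -0.68 on stimulated naive-derived arrays. Of 28 DNA replication genes, 0 passed in limma (14 had an unadjusted p below 0.05) and 26 had an estimate above 0 (median 0.59).

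The remaining genes of this class covered adhesion, signalling and metabolism. Limd2, a LIM domain protein, had an interaction of 2.07 (SE 0.22, adjusted p = 0.0287 with the block), and Ugcg, the first enzyme of glycosphingolipid synthesis, of 1.65 (SE 0.20, adjusted p = 0.0287 with the block). Ugcg lay at 6.02, 6.16 and 6.38 on memory-derived unstimulated arrays and between 4.60 and 5.08 on the 8 others. Sema4a, a semaphorin (1.54), Sting1, the adaptor of cytosolic DNA sensing (1.40), and Tbc1d9b, of the TBC family (1.48), passed with the block as well, at adjusted p = 0.0454, 0.0474 and 0.0474. Prkcq, the kinase that links the T cell receptor to NF-kappaB, had an interaction of 1.61 and was the 1 passing gene of 18 in the T cell receptor list. The actin regulator Evl (2.20), the adhesion adaptor Lpxn (2.27), Il16, a chemoattractant (2.32), Tbc1d10c, an inhibitor of calcineurin and Ras signalling (2.54), and Crot, of peroxisomal fatty acid oxidation (2.52), passed without the block only. Nt5e, the ectoenzyme CD73, had an interaction of 1.88, Psap, a lysosomal cofactor, of 1.39, and Hopx, a homeodomain protein of effector cells, of 1.18.

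A smaller set of genes was set by memory-derived stimulated cells. They were the group apart and low in 18 passing genes, where the largest gap was that of Gbp2. Gbp2, an interferon-inducible GTPase, lay at 4.45, 4.71 and 4.90 on memory-derived stimulated arrays, at 6.42, 6.32 and 6.86 on memory-derived unstimulated, at 7.01 and 6.99 on unstimulated and at 6.73, 6.71 and 7.36 on stimulated naive-derived arrays. Only the memory-derived stimulated arrays were low, and the naive-derived groups overlapped. The interaction was 1.78 (SE 0.31, adjusted p = 0.0258, and adjusted p = 0.0287 with the block), and the naive minus memory difference was 0.47 in unstimulated and 2.25 in stimulated cells.

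Gbp6, of the same family of close paralogs, which probes can share, lay at 3.49, 3.26 and 3.38 on memory-derived stimulated arrays, at 5.71, 5.99 and 6.0 on memory-derived unstimulated, at 5.51 on both unstimulated and at 4.97, 4.69 and 4.89 on stimulated naive-derived arrays. Here naive-derived cells also had lower stimulated than unstimulated levels, by a smaller amount (-0.66, SE 0.15, against -2.52, SE 0.13). The interaction was 1.86 (SE 0.20, adjusted p = 0.0066, and adjusted p = 0.0287 with the block). Ifi47, an immunity-related GTPase, had a difference of -2.64 in memory-derived and -0.49 in naive-derived cells (interaction 2.15, SE 0.28, adjusted p = 0.0267 with the block). Igtp, another, had -2.25 and -0.77 (interaction 1.48, SE 0.25, adjusted p = 0.0474 with the block). Isg20, an exonuclease against viral RNA, lay at 5.16, 5.22 and 5.34 on memory-derived stimulated arrays and between 6.43 and 6.91 on all 8 others (interaction 1.46, SE 0.21, adjusted p = 0.0474 with the block). Gbp7 also passed with the block (1.72, adjusted p = 0.0287), but its memory-derived unstimulated mean was further from the rest, being high.

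The lists held more such genes. In the type I interferon response list 6 of 25 genes passed, all with a positive interaction (median 0.47), and in 3 of the 6, Isg20, Rtp4 (1.49) and Zbp1 (0.79), memory-derived stimulated cells were the group apart. The list's mean level, set to 0 in memory-derived unstimulated cells, was -0.78 to -0.61 on memory-derived stimulated, -0.12 and -0.06 on unstimulated and -0.34 to -0.24 on stimulated naive-derived arrays. Of 14 genes of MHC class I loading and the immunoproteasome, 3 passed, all positive: Psmb9 (1.44, SE 0.25), Psmb10 (1.14, SE 0.20) and Psmb8 (1.06, SE 0.24), the 3 immunoproteasome subunits that interferon gamma induces. Psmb9 and Psmb10 had memory-derived stimulated cells apart, and Psmb8 memory-derived unstimulated cells. None of these 3 passed with the block. Ifng itself, the gene of interferon gamma, did not pass (-1.14, SE 1.27, adjusted p = 0.637). It lay at 12.55, 11.99 and 8.16 on memory-derived unstimulated arrays, 12.22 to 12.73 on memory-derived stimulated, 13.10 and 13.21 on unstimulated and 13.42 to 13.64 on stimulated naive-derived arrays. Without memory-derived unstimulated array 3 its interaction turned to 0.23. Fasl, the death ligand of cytotoxic cells, also had memory-derived stimulated cells lowest (6.95, 7.04 and 6.92, against 7.47 to 7.98 elsewhere; interaction 0.90, SE 0.17).

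**Figure D5:**
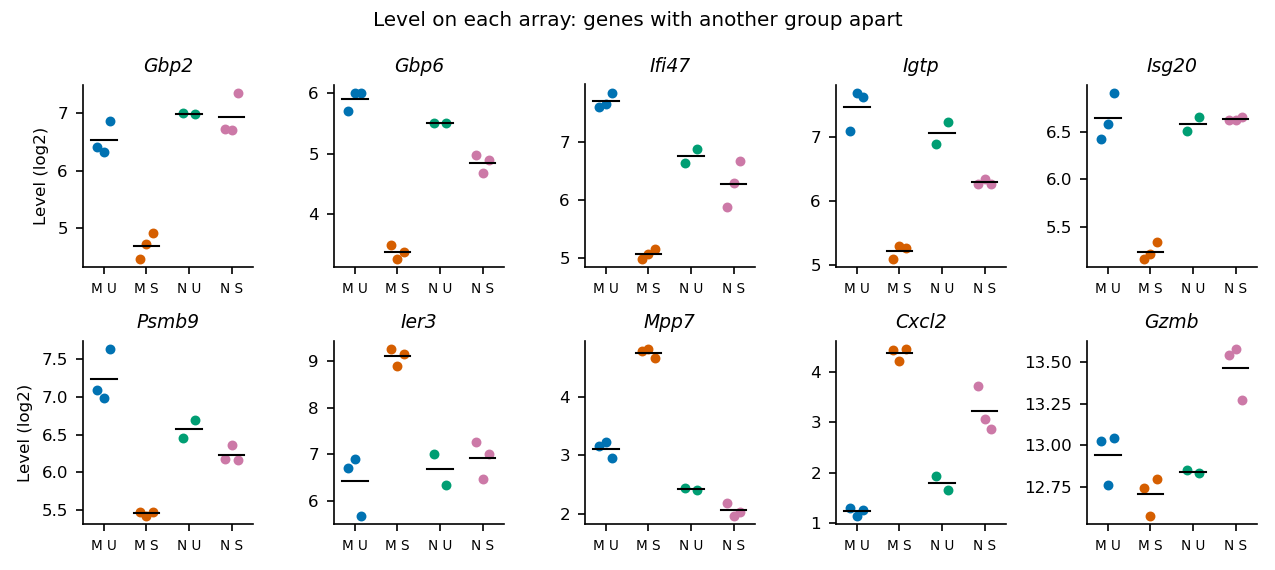
Each panel gives the level (log2) of 1 gene on the 11 arrays, with a bar at each group mean, for memory-derived (M) and naive-derived (N), unstimulated (U) and stimulated (S) cells. Memory-derived stimulated cells are lowest in Gbp2, Gbp6, Ifi47, Igtp, Isg20 and Psmb9 and highest in Ier3, Mpp7 and Cxcl2, and naive-derived stimulated cells are highest in Gzmb.

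Memory-derived stimulated cells were the group apart and high in 13 passing genes. Ier3, an early response gene that modulates survival, lay at 9.26, 8.90 and 9.16 there, at 6.70, 6.90 and 5.69 on memory-derived unstimulated, at 7.0 and 6.35 on unstimulated and at 7.28, 6.47 and 7.02 on stimulated naive-derived arrays. All other groups overlapped. The interaction was -2.43 (SE 0.47, adjusted p = 0.0336, and adjusted p = 0.064 with the block). Mpp7, a scaffold protein of cell polarity, had the lowest adjusted p of the genes named here (interaction -2.00, SE 0.18, adjusted p = 0.00504, and adjusted p = 0.0267 with the block). It lay at 4.78, 4.81 and 4.66 on memory-derived stimulated arrays, at 2.95 to 3.23 on memory-derived unstimulated and at 1.97 to 2.44 on naive-derived arrays. Its naive minus memory difference was -0.68 in unstimulated and -2.69 in stimulated cells, so here the origins lay further apart after stimulation. Pfpl, a perforin-like gene, passed with the block (-1.80, adjusted p = 0.0474). It lay at 3.60, 3.82 and 3.64 on memory-derived stimulated arrays and at or under 1.76 on all others, near or below the filter level.

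The chemokine Cxcl2 lay at 4.44, 4.21 and 4.44 on memory-derived stimulated and at 3.71, 3.07 and 2.86 on naive-derived stimulated arrays, and below the filter level on all memory-derived unstimulated arrays. With that group set at the filter level, its interaction was at least -1.41 in size (-1.71 as measured, adjusted p = 0.0252, and adjusted p = 0.0536 with the block). Together with Ccl17, a chemokine near the filter level, it made up the 2 passing genes of 12 chemokines, both negative, with a list median of -1.06. Myo6, an actin motor, had an interaction of -1.07 and was higher in memory-derived cells in both states (naive minus memory -1.38 and -2.45).

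Genes with a naive-derived group apart were few and mostly dim. Of the 13, 11 had no group mean above 3 (log2), a level chosen after their values were seen. The same held for 20 of the 357 with memory-derived unstimulated cells apart. The brightest was Gzmb, which encodes granzyme B, the main protease of cytotoxic granules. It lay at 13.54, 13.57 and 13.27 on naive-derived stimulated arrays and at 12.58 to 13.04 on all others. The stimulated minus unstimulated difference was 0.62 (SE 0.15) in naive-derived and -0.24 (SE 0.13) in memory-derived cells. Its interaction of 0.86 (SE 0.20, adjusted p = 0.0497, and adjusted p = 0.0975 with the block) lay close to the threshold, and probes can be shared with other granzymes. Cfap298, a gene of cilia, had its highest group mean in naive-derived unstimulated cells (arrays at 4.97 and 5.05, against 4.16 to 5.06 elsewhere), and the groups overlapped (interaction -1.02, SE 0.23). Zfp651 (-1.40) passed with the block but lay at or under 2.03 on every array.

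Of the genes used to tell effector from memory cells, most did not pass the interaction test, which does not show that the origins responded alike. Eomes, a factor of memory CD8 cells, lay at 7.14 to 7.67 on all memory-derived arrays and at 2.97 to 4.95 on naive-derived arrays, with an interaction of -1.28 (SE 0.41, adjusted p = 0.105). Klrg1, a marker of terminal effectors, lay at 5.21 to 7.31 on memory-derived and 2.14 to 2.94 on naive-derived arrays (interaction 1.01, SE 0.54, adjusted p = 0.284). Prf1, which encodes perforin, had an interaction of -1.72 (SE 0.55, adjusted p = 0.102). Il7r, the interleukin 7 receptor, had one of 0.65 (SE 0.41, adjusted p = 0.373), Tbx21, the factor T-bet, of -0.38 (SE 0.20, adjusted p = 0.293), Cd27 of -0.30 (SE 0.28, adjusted p = 0.562), Cd44 of -0.83 (SE 0.34, adjusted p = 0.179) and Cd69, an early activation marker, of -0.19 (SE 0.47, adjusted p = 0.85). Fgl2, an inhibitory fibrinogen-like protein, responded in both origins with differences of -3.32 (SE 0.26) and -2.41 (SE 0.29), and its interaction of 0.91 did not pass (SE 0.39, adjusted p = 0.198). With a median SE of 0.26 for the interaction, differences of the size of those of Tbx21 and Cd69 were not detectable with these arrays. Of the granzyme, perforin and granule list, 3 of 19 genes passed with a positive interaction (Fasl, Ctsw and Gzmb) and 1 with a negative one (Serpinb6b). Ctsw, a protease of cytotoxic cells, had an interaction of 0.81. Further lists with 0 passing genes in limma were NFAT and calcium signalling (4 of 13 at an unadjusted p below 0.05), adhesion (11 of 20), inhibitory receptors (4 of 14), MYC and polyamine synthesis (6 of 13), glycolysis and hypoxia (8 of 19), the BCL2 family (3 of 13) and mRNA decay (5 of 9). Over all genes tested, 3454 of 14795 had such an unadjusted p in limma. The counts of the BCL2 family, inhibitory receptors and NFAT lists lay near that share. The glycolysis and hypoxia list counts Pigq, which was matched to the symbol Gpi1 through a synonym and is not a glycolytic gene.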

How the data were processed

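RNA of 11 cultures was measured on Affymetrix 3' arrays, 1 array each. The authors deposited a table of normalized values, taken here as log10. The base was inferred from the hybridization controls, since the sources used here give neither base nor summarization. The deposited value stepped by 0.944, 1.02 and 1.77 per log10 unit of concentration, where log10 values would step by 1, natural logarithms by 2.30 and log2 values by 3.32. Because the cre step is well above 1, the base, and with it the size of every log2 value, is not certain. Affymetrix Expression Console is the software named in the submitters' processing notes. All 11 columns held the same sorted values, so the deposited values had been quantile normalized; array intensity carries no depth here, and precision is limited by the number of arrays.

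Here values were multiplied by 3.32, the log2 of 10. Of 45101 probe sets, 64 were controls, 34945 had 1 gene symbol in GEO's platform annotation, 932 had several and 9160 were not listed. Of the identifiers, 34741 matched RefSeq (GRCm38.p6). The probe set with the highest mean stood for each of 18193 genes, and the test took the 14795 genes that exceeded the 40th percentile (1.54) on 2 or more arrays.

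A model of 4 group means was fitted with limma 3.58.1 (lmFit, eBayes; R 4.3.3), two-sided, with Benjamini-Hochberg adjustment over all tested genes, and checked on simulated data. It had 7 residual degrees of freedom. The labels give each array an experiment number that is also its replicate number, so the numbers pair the arrays. Deviations from the group means correlated at 0.05 to 0.11 between the stimulated and unstimulated array of an experiment and origin (5 pairs), and at -0.07 to 0.09 between origins (10 pairs).

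Genes named were, among those passing with a curated symbol and measured in a group, the 10 largest interactions of each sign, up to 5 per group apart and direction by gap, up to 4 per gene list, all passing with the block, and a set of chosen T cell genes whatever their result. A few others are named beside counts and were chosen after their values were seen (Zbp1, Ddit4, Ccl9 and Csf2 among them). Of 684 list members, 40 were unmatched and 13 filtered out. The genes, lists and comparison were chosen with earlier results of these data known. Alternatives were other filters, scalings, blocks, probe set rules, array weights, a prior trend and leaving out each array.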

Additional observations from a re-analysis of the deposited data

Results flagged for a closer look

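The response to stimulation differed between naive-derived and memory-derived cells, by the interaction itself, in 239 genes with a positive and 162 with a negative value (limma, adjusted p below 0.05; 15 and 11 with the replicate block, and 0 without naive-derived unstimulated array 1). The values below are the interactions (log2) of the 100 passing genes that were named, by the group whose mean lay furthest from the others, and their causes were not tested.

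With memory-derived unstimulated cells low, the interactions were Il3 -6.95, Il2 -4.80, Il24 -3.90, Il10 -3.85, Il1a -3.55, Il23a -3.02, Gch1 -2.91, Serpinb6b -2.91, Atf3 -2.86, Cd70 -2.83, Tnf -2.77, Idi2 -2.60, Stat5a -2.59, Ndrg1 -2.50, Nfkbid -2.43, Chac1 -2.29, Fosl1 -2.19, Cass4 -2.10, Tnfrsf4 -2.01, Dusp4 -1.89, Socs3 -1.87, Nfkbib -1.73, Pdzk1ip1 -1.63, Irf4 -1.63, Cflar -1.57, Asns -1.54, Dnajb9 -1.39, Eif4ebp1 -1.33, Ncl -1.29, Insig1 -1.28, Mthfd2 -1.20, Polr1a -1.17, Aldh18a1 -1.17, Nars -1.13, Pes1 -1.09, Polr1c -1.08, Iars -1.07, Cars -1.06, Stat5b -0.99 and Wars -0.72.

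With memory-derived unstimulated cells high, the interactions were Ltb 2.95, Tbc1d10c 2.54, Crot 2.52, Ifi209 2.41, Ypel3 2.39, Txnip 2.33, Il16 2.32, Ccr2 2.28, Lpxn 2.27, Evl 2.20, Limd2 2.07, Gimap7 2.06, Ifngr1 2.02, Tgfbr2 1.95, Nt5e 1.88, Cdkn2c 1.87, Gbp7 1.72, Ugcg 1.65, Il10rb 1.62, Prkcq 1.61, Sema4a 1.54, Tbc1d9b 1.48, Btg2 1.48, Gimap6 1.47, Sting1 1.40, Psap 1.39, Ccnd3 1.30, Gimap4 1.28, Hopx 1.18, Tnip1 1.15, Psmb8 1.06, Gimap8 1.04, Parp14 0.99, Ddx58 0.93 and Ctsw 0.81.

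With memory-derived stimulated cells low, the interactions were Ifi47 2.15, Gbp6 1.86, Gbp2 1.78, Rtp4 1.49, Igtp 1.48, Isg20 1.46, Psmb9 1.44, Psmb10 1.14 and Fasl 0.90.

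With memory-derived stimulated cells high, the interactions were Ier3 -2.43, Mpp7 -2.00, Pfpl -1.80, Cxcl2 -1.71, Ccl17 -1.17 and Myo6 -1.07.

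With naive-derived unstimulated cells low, the interactions were Fndc10 1.74 and Lca5l 1.25.

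With naive-derived unstimulated cells high, the interactions were Cfap298 -1.02 and Clec10a -0.91.

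With naive-derived stimulated cells low, the interactions were S100a16 -1.49 and Zfp651 -1.40.

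With naive-derived stimulated cells high, the interactions were Tmem87a 1.60, Kcnh1 1.28, Mamstr 1.22 and Gzmb 0.86.

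Some of these rest on a group below the filter level (1.54) on all its arrays. With that group set at the filter level, the interaction was -0.83 for Ccl17, -1.41 for Cxcl2, -1.97 for Idi2, -3.16 for Il1a, 0.90 for Kcnh1, 0.75 for Lca5l, 0.90 for Mamstr, -2.40 for Pfpl, 1.35 for Tmem87a, -0.85 for Zfp651. The value for Pfpl is no lower bound on its measured -1.80. Its naive-derived unstimulated mean was raised to the filter level, but its naive-derived stimulated mean of 1.25 was left below it.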

How the results depend on the processing

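The counts of genes with a positive and a negative interaction (239 and 162) depended strongly on the setting. The replicate block gave 15 and 11, a random block by origin and experiment 532 and 359, experiments 1 and 2 alone 31 and 18, scaling to hybridization controls 68 and 78, no filter 106 and 68, a filter at the 60th percentile 621 and 443, array weights 836 and 650, and a prior trend 634 and 468. Leaving out 1 array gave 0 to 808 positive and 0 to 697 negative genes, lowest without naive-derived unstimulated array 1 and highest without memory-derived unstimulated array 2. The median over probe sets gave 198 and 155, and 271 of the 401 were among them. In that setting 21 of the 99 named passing genes that were tested no longer passed, and 1 more changed sign. The share of passing genes with memory-derived unstimulated cells apart (89.03%) was 65.4% with the block, 77.6% for experiments 1 and 2, 92.1% at the 60th percentile, 92.6% with a prior trend, 82.04% by the size of the origin differences, and 60 to 92.7% with 1 array left out. Without naive-derived unstimulated array 1 no gene passed, and that share could not be computed. Reasons were not tested. All 401 genes kept their sign under each of these settings where they were tested, except with the median over probe sets (388 of 394). As they were picked for a large interaction on the same arrays, few changes of sign could occur among them. With 1 array left out, the interaction ranged from -0.50 to 0.17 for Cd69 and from -1.96 to 0.23 for Ifng. The direction turned for Cd69 without naive-derived unstimulated array 1 (0.04) and without naive-derived stimulated array 2 (0.17), for Ifng without memory-derived unstimulated array 3 (0.23) and in experiments 1 and 2 (0.17), and for Zfp651 with the median over probe sets (0.036). The block changed no other direction among the named genes. A group of 2 arrays and values compressed near 0 limit what could be detected.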

Other observations

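Among genes that did not pass, the 10 with the largest interactions by size were chosen after their values were seen. All 10 were negative, and memory-derived unstimulated array 3 had the lowest value of the 11 arrays in each. Ccl9, a chemokine, lay at 6.70, 7.22 and 2.42 (log2) on memory-derived unstimulated arrays, at 10.18, 10.43 and 10.17 on memory-derived stimulated, at 8.74 and 8.55 on naive-derived unstimulated and at 9.36, 9.48 and 9.06 on naive-derived stimulated arrays (interaction -4.16, SE 1.40, adjusted p = 0.114 in limma). Csf2, the growth factor GM-CSF, lay at 8.59, 9.32 and 5.09 on memory-derived unstimulated arrays and between 10.57 and 12.21 on the others (interaction -3.66, SE 1.22, adjusted p = 0.111). The others were Hbegf, a ligand of the EGF receptor (-3.18), Tnfsf11, the ligand RANKL (-3.18), Rgcc (-3.07), Spry1, an inhibitor of MAP kinase signalling (-2.80), Mpzl2 (-2.71), Penk, the precursor of enkephalins (-2.53), Plk2 (-2.53) and the chemokine Xcl1 (-2.51). In 9 of the 10 the group apart was memory-derived unstimulated, and in Penk memory-derived stimulated.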
